A study of Mus musculus with 2 samples.

Results

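The microRNAs (miRNAs) described here are those of the Clcn5 cluster in small RNA sequenced from heart mitochondria of mice, with 1 control library and 1 library from STZ-treated mice. STZ is streptozotocin, which kills pancreatic beta cells and is a usual way to make mice diabetic. The design compares the mitochondrial miRNAs of the STZ heart with those of the control heart. Both libraries are labelled as total RNA of heart mitochondria, and the strain, sex, age, STZ dose, time after STZ and any pooling of hearts are not stated in the labels. Entries were taken by name, as every entry called miR-532, miR-362, miR-500, miR-500a, miR-501, miR-502, miR-660 or miR-188 under a human or mouse prefix, with either arm. This gave 15 of the 851 named entries, 9 with human names and 6 with mouse names. The set was selected on the STZ and control levels of hsa-miR-362-5p, which had almost no STZ reads, so the values of that entry are a description and not a finding. The question is whether its near loss was shared by the other miRNAs of the same intron.

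In mouse these miRNAs are processed from hairpins within a long intron of Clcn5, an X-linked gene for a chloride/proton exchanger known mainly from endosomes of the kidney tubule. A miRNA hairpin is cut to a duplex whose 5p and 3p strands can each be loaded into an Argonaute protein, and usually one of them dominates. The loaded strand finds target messages mainly through its seed, bases 2 to 8. Since hairpins of 1 intron can come from 1 transcript, their total output may move together, whereas strand choice and stability act on each mature miRNA.

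In the GENCODE annotation on GRCm38, 5 hairpins of the set lie on the minus strand of chromosome X within 10815 bases, in the same direction as Clcn5 (chrX:7153810-7319358). They lie together in an intron of 103648 bases, which is the third intron of the annotated Clcn5 transcript with 14 introns. In the direction of transcription the order is Mir532 (chrX:7248402-7248497), Mir188 (chrX:7247989-7248056), Mir362 (chrX:7241982-7242046), Mir501 (chrX:7241243-7241351) and Mir500 (chrX:7237683-7237774). Mir362 and Mir501 are separated by 630 bases, and Mir532 and Mir188 by 345. The submitters' processing notes name GRCm39, and the deposited tables carry no coordinates.

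The mature mouse sequences below, from RefSeq on GRCm38.p6, are shown because several of them are close copies, which bears on how reads are divided among the entries. Capitals mark the seed.
mmu-miR-362-5p: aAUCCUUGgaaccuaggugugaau
mmu-miR-500-5p: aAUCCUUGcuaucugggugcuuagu
mmu-miR-501-5p: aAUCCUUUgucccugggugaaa
mmu-miR-362-3p: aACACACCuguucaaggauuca
mmu-miR-500-3p: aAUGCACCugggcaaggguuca
mmu-miR-501-3p: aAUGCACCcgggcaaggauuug
mmu-miR-532-3p: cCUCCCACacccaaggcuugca
mmu-miR-188-3p: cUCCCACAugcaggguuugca
The 5p arms of miR-362 and miR-500 share their whole seed, and that of miR-501 differs from it at 1 base. The 3p arms of miR-500 and miR-501 share another seed and differ at 4 of 22 positions. From miR-500-3p the 3p arm of miR-362 differs at 5 of 22 positions, 2 of them in the seed. miR-532-5p, the most abundant entry, is named only. RefSeq human sequences were not used, so an entry with a human name is described by its name.

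The hairpin of Mir362, shown with both mature arms in capitals, holds the 2 strands on which the results turn.
Mir362: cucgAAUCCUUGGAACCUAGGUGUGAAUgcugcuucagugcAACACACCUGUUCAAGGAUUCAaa
The 5p arm is the first stretch of capitals and the 3p arm the second.

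Levels are given in RPM, reads scaled so that each library sums to 1000000, without a correction for length (the mature forms above have 21 to 25 bases). Assigned reads numbered 508182 for the control and 706860 for STZ, which makes 1 read worth 1.97 and 1.41 RPM. A floor of 3 reads, about the 1-sided 95% limit of a count of 0, stood at 5.90 RPM and 4.24 RPM, and the exact 2-sided 95% interval of a count of 0 reached 7.26 RPM and 5.22 RPM. The heart muscle miRNA miR-1-3p led both libraries, at 209319 RPM in the control and 252647 RPM in the STZ library, and the labelled mitochondrial origin was not checked here. With 1 library per group there is no replicate check and no p-value, and "higher" and "lower" compare these 2 libraries. All 95% intervals cover only counting error, as no molecular identifiers are mentioned and PCR copies of 1 molecule count as several reads.

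The low STZ value of miR-362-5p was not shared by the cluster as a whole. The 15 entries together held 220 reads in each library, that is 433 RPM in the control and 311 RPM in the STZ library. Their summed STZ to control ratio was 0.719 (exact 95% interval 0.594 to 0.871), a value that includes the miR-362-5p reads that chose the set. Without the human-named miR-362-5p the other 14 entries had 176 control and 219 STZ reads, and the ratio was 0.895 (0.730 to 1.10), an interval that includes 1. Of these reads miR-532-5p alone held 113 and 151, so the sum mostly follows that entry. With both entries of miR-362-5p left out the summed ratio was 0.900 (0.734 to 1.10), and without any miR-362 entry 0.871 (0.710 to 1.07). In these bulk libraries, fewer cells or mitochondria that carry a miRNA and less of it in each cannot be told apart.

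**Figure D1:**
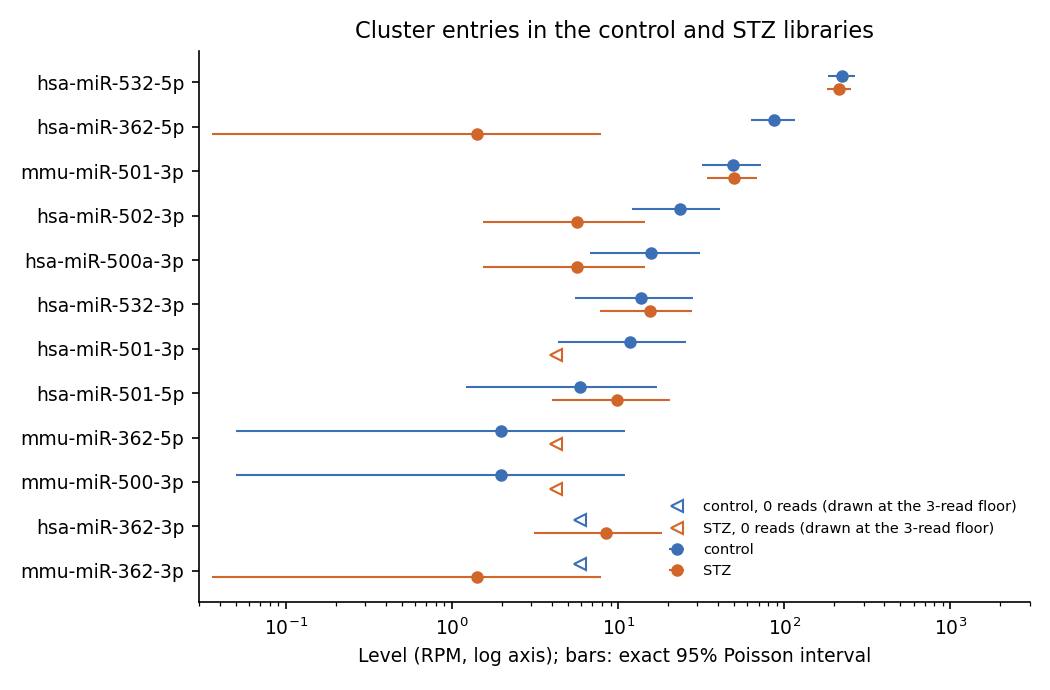
Level of each of the 12 cluster entries with a read in either library, in RPM on a log axis, for the control (blue) and the STZ library (orange). Points are single libraries, bars are exact 95% Poisson intervals, and open triangles mark 0 reads, drawn at the floor of 3 reads. The points of miR-532-5p and mouse-named miR-501-3p nearly coincide, while those of miR-362-5p stand at 86.6 and 1.41 RPM.

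miR-362-5p, which in human cancer cell lines has been described as a repressor of the NF-kB inhibitor CYLD, stood second in the cluster in the control. The human-named entry, hsa-miR-362-5p, had 44 reads there, 86.6 RPM (62.9 to 116), and 1 read in the STZ library, 1.41 RPM (0.0358 to 7.88). An equal level would have given 61.2 reads in the deeper STZ library. The STZ to control ratio was 0.0163 (0.000405 to 0.0959), that is 61.2-fold lower with an interval of 10.4 to 2472, which is wide because it rests on 1 read. The mouse-named entry of miR-362-5p had 1 control read and 0 STZ reads, so its few reads did not make up the difference. Summed over both names, the reads were 45 and 1. Of the cluster's 220 control reads, human-named miR-362-5p thus took 44, a share with a Wilson 95% interval of 15.2% to 25.8%, and of its 220 STZ reads 0.455% (0.0803 to 2.53).

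Entries of like control level are given as a scale for these values. As miR-362-5p was chosen for its low STZ level, its low place among them is a description and not a test. The 5 named entries nearest in control level, with ties 6 of them, had 43 to 46 control reads and 37 to 109 STZ reads. They were miR-1198-5p (43 STZ reads), miR-23a-3p under its mouse name (37), miR-497-5p (41), miR-450a-1-3p (40), miR-872-5p (83) and miR-181c-5p (109). None of these 6 was 2-fold apart. Among all 36 other named entries with 30 to 60 control reads, the STZ reads ranged from 0 to 177 with a median of 42. Of these 36, miR-4454 with 0 STZ reads was below miR-362-5p, and the next lowest was the epithelial miR-200b-3p with 3 (both chosen after their values were seen).

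The opposite strand of the same hairpin had its few reads in the STZ library alone. miR-362-3p had 0 control reads under either name, and in the STZ library 6 reads under its human name (8.49 RPM) and 1 under its mouse name. For the summed 7 reads, the exact interval of the STZ to control ratio had a lower bound of 1.04. For the human-named entry alone that bound was 0.846, so its interval includes 1. These reads are few, and the interval of 0 control reads reaches 7.26 RPM. Over both names, control reads of miR-362 were 45 on the 5p and 0 on the 3p strand, and STZ reads 1 and 7. The 5p strand thus held every control read of the hairpin and 12.5% of its STZ reads. The 5p counts in this comparison are those that chose the set, so the strand shares of miR-362 are a description. With both strands summed, the hairpin had 45 and 8 reads, a ratio of 0.128 (0.0520 to 0.274), so the 3p reads did not offset the 5p difference.

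**Figure D2:**
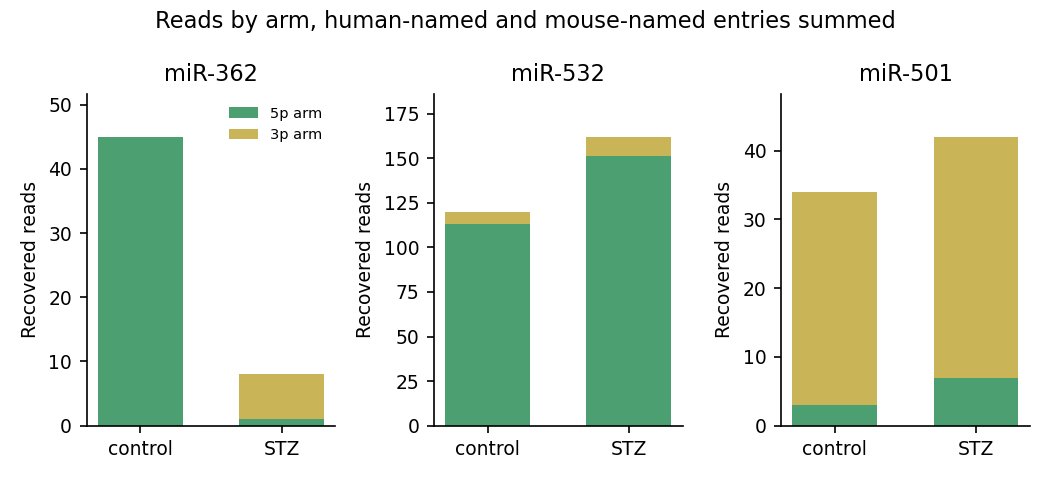
Recovered reads of the 5p arm (green) and the 3p arm (yellow) of miR-362, miR-532 and miR-501 in the control and STZ libraries, with human-named and mouse-named entries summed. The miR-362 bar holds 45 reads of the 5p arm in the control but 1 read of it and 7 of the 3p arm in the STZ library, while the other bars keep the same dominant arm. Each panel has its own scale, and the bars carry no error because each is 1 library.

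Strand use of miR-532 and miR-501 kept the same dominant strand in both libraries. miR-532 had 94.2% of its reads on the 5p strand in the control and 93.2% with STZ, with an odds ratio of 0.850 (0.271 to 2.49). For miR-501 over both names, the 5p strand had 3 and 7 reads and the 3p strand 31 and 35, an odds ratio of 2.07 (0.422 to 13.3). Under human names alone, miR-501 had 3 reads of the 5p and 6 of the 3p strand in the control against 7 and 0 in the STZ library, and the lower bound of that odds ratio was 1.43. The mouse-named 3p entry, with 25 and 35 reads, accounts for the difference between these values.

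Across all precursors, 137 had at least 20 reads over both strands and libraries, with names summed. In 5 of them (3.65%) the more abundant strand differed between the libraries with an interval of the odds ratio that excluded 1. miR-362 was one of them, on the value that chose the set. The other 4, which this rule picked after the values were seen, were miR-132, miR-350, miR-3068 and miR-450b. In miR-450b, also an X-linked miRNA, the 5p strand had 13 and 0 reads and the 3p strand 1 and 9, the same direction as miR-362. The remaining 3 went toward the 5p strand in the STZ library.

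miR-532, the hairpin nearest to the start of the host gene, had nearly the same level in both libraries. hsa-miR-532-5p was the most abundant entry of the cluster, with 113 control reads (222 RPM, 183 to 267) and 151 STZ reads (214 RPM, 181 to 251). Its STZ to control ratio was 0.961 (0.748 to 1.24), and the interval lies inside 2-fold in both directions. miR-532-3p, described in mouse cardiomyocytes as a repressor of the apoptosis inhibitor ARC, had 7 and 11 reads (13.8 and 15.6 RPM), a ratio of 1.13 (0.400 to 3.44). The 2 strands thus gave ratios near 1, with a wide interval for the 3p strand.

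miR-501, which lies next to miR-362 in the intron, did not show its difference either. miR-501 has been described in activated muscle progenitor cells of mice. The mouse-named miR-501-3p had 25 control reads (49.2 RPM, 31.8 to 72.6) and 35 STZ reads (49.5 RPM, 34.5 to 68.9), a ratio of 1.01 (0.585 to 1.75). Its interval reached neither 2-fold lower nor 2-fold higher. miR-501-5p had 3 and 7 reads under its human name (5.90 and 9.90 RPM), a ratio of 1.68 (0.383 to 10.1), and 0 reads in both libraries under its mouse name. The human-named miR-501-3p had 6 control reads (11.8 RPM) and 0 STZ reads, and the interval of its ratio had an upper bound of 0.611. Summed with its mouse-named counterpart, miR-501-3p had 31 and 35 reads, a ratio of 0.812 (0.486 to 1.36).

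The 3p entries of miR-500a and miR-502 were lower in the STZ library, on few reads. miR-502-3p had 12 and 4 reads (23.6 and 5.66 RPM), a ratio of 0.240 (0.0563 to 0.791). miR-500a-3p had 8 and 4 reads (15.7 and 5.66 RPM), a ratio of 0.359 (0.0792 to 1.34) whose interval includes 1. The mouse-named miR-500-3p had 1 control read and 0 STZ reads. No mouse hairpin of miR-502 was used here, and in human miR-500a, miR-501 and miR-502 are near copies of each other, so reads of 1 mouse miRNA may stand under several of these names.

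These close copies were also summed by the species of the name, after the values were seen. The 3 human-named 3p entries of miR-500a, miR-501 and miR-502 had 26 control and 8 STZ reads, a ratio of 0.221 (0.0866 to 0.503). The 2 mouse-named 3p entries of miR-500 and miR-501 had 26 and 35 reads, a ratio of 0.968 (0.566 to 1.67). That sum mostly follows miR-501-3p with 25 and 35 reads, while miR-500-3p had 1 and 0. All 5 together had 52 and 43 reads, 102 and 60.8 RPM, a ratio of 0.594 (0.387 to 0.908). Whether reads moved between names was not tested.

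**Figure D3:**
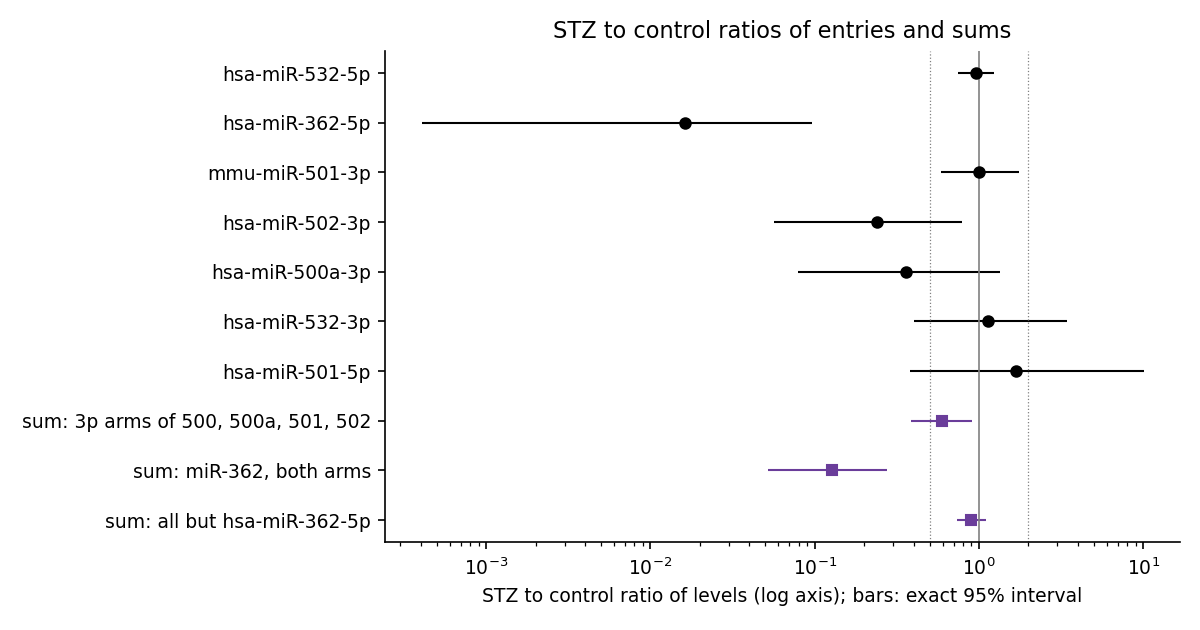
STZ to control ratio of the 7 entries with reads in both libraries (black circles) and of 3 sums (purple squares), on a log axis with exact 95% intervals that cover counting error only. The solid line marks a ratio of 1 and the dotted lines 2-fold. The interval of miR-362-5p ends at 0.0959, that of miR-502-3p at 0.791, and those of miR-532-5p, miR-501-3p, miR-500a-3p, miR-532-3p and miR-501-5p include 1.

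Reads were present for 10 of the 15 entries in the control and for 9 with STZ, with 7 in both, 3 in the control alone, 2 in the STZ library alone and 3 at 0 in both. Those at 0 in both were miR-188-3p, which in mouse cardiomyocytes has been described as a repressor of the autophagy gene Atg7, miR-500-5p and the mouse-named miR-501-5p. For each, the interval of 0 reads reaches 7.26 RPM (control) and 5.22 RPM (STZ). No entries for miR-660, miR-188-5p, miR-500a-5p or miR-502-5p were analysed here. The 2 entries in the STZ library alone were the human-named and mouse-named miR-362-3p.

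By the rule used for all miRNAs, at least 2-fold on the scale of log2(RPM + 1) among entries with a mean of at least 10 RPM, 6 of the 15 entries were tested. Of these 3 were lower in the STZ library, namely miR-362-5p, miR-502-3p and miR-500a-3p, 0 were higher and 3 were neither. Over all 314 named entries tested, 18.5% were lower and 17.8% higher. As miR-362-5p chose the set and miR-502-3p and miR-500a-3p may share reads, the count of 3 is given beside the 18.5% without reading more from it. The median log2 difference of the 6 was -0.69, and -0.06 over the 5 without miR-362-5p, beside -0.02 over all 314. By the stricter rule on reads (at least 20 reads over both libraries, at least 2-fold, interval excluding 1), 3 entries were tested, miR-362-5p was lower and miR-532-5p and mouse-named miR-501-3p were neither. That rule called 13.5% of 275 named entries lower and 15.3% higher.

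**Figure D4:**
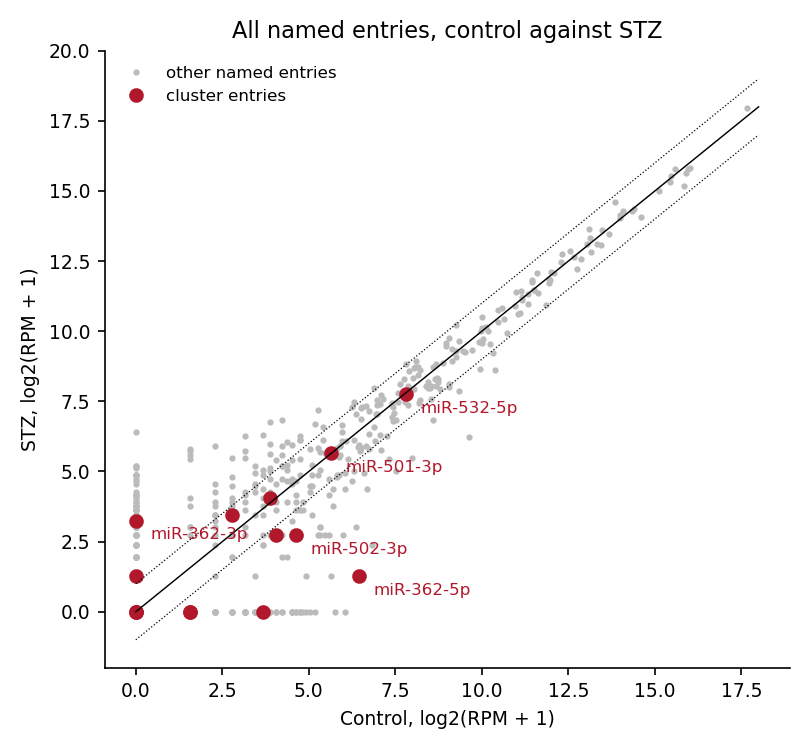
Levels of the 851 named entries in the control and STZ libraries as log2(RPM + 1), with the 15 cluster entries in red and the other entries in grey. The solid line marks equal levels and the dotted lines 2-fold. miR-532-5p and miR-501-3p lie on the line of equal levels, miR-362-5p far below it, and grey points scatter widely at low levels.

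The order of levels within the cluster differed between the libraries, with miR-362-5p, miR-502-3p, miR-500a-3p and human-named miR-501-3p among those further down the order with STZ. In the control miR-532-5p was highest, followed by miR-362-5p, mouse-named miR-501-3p and miR-502-3p. Only the first step was beyond the counting intervals, since those of miR-362-5p (62.9 to 116 RPM) and miR-501-3p (31.8 to 72.6) overlap, and so do those of miR-501-3p and miR-502-3p (12.2 to 41.2). In the STZ library the order was miR-532-5p, miR-501-3p, miR-532-3p and miR-501-5p, with intervals of miR-532-3p (7.77 to 27.8 RPM) and miR-501-5p (3.98 to 20.4) that overlap. miR-532-5p made up 51.4% of the cluster's control reads (44.8 to 57.9) and 68.6% of its STZ reads (62.2 to 74.4). Both totals include human-named miR-362-5p, which chose the set, and the low STZ count of that entry by itself raises the STZ share. Leaving it out, 113 out of 176 belonged to miR-532-5p in the control, against 151 out of 219 after STZ. These shares are therefore not read as a change in miR-532-5p, whose own ratio was 0.961 (0.748 to 1.24).

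With Mir362 included, the ratios neither fell nor rose steadily along the intron. The hairpin sums leave out miR-502-3p (12 and 4 reads), for which no mouse hairpin was used. Summed over strands and names, Mir532 at the upstream end had a ratio of 0.971 (0.762 to 1.24). Mir362, 6451 bases downstream, stood at 0.128 (0.0520 to 0.274). Mir501, 7146 bases downstream, was back at 0.888 (0.552 to 1.44). Mir500, 10723 bases downstream, had 9 and 4 reads and a ratio of 0.320 (0.0719 to 1.14). Human-named entries were placed at the mouse hairpin by name, with miR-500a counted at Mir500. Of the Mir500 reads, 8 and 4 stood under the human-named miR-500a-3p, which may hold reads of its near copies. With Mir362 left out, the ratios of Mir532, Mir501 and Mir500 fell with distance, but their intervals overlap and each includes 1. An order by position was therefore neither shown nor excluded. Mir188, between Mir532 and Mir362 at 441 bases, had 0 reads in both libraries and gives no ratio, so the hairpin directly upstream of Mir362 is not informative.

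**Figure D5:**
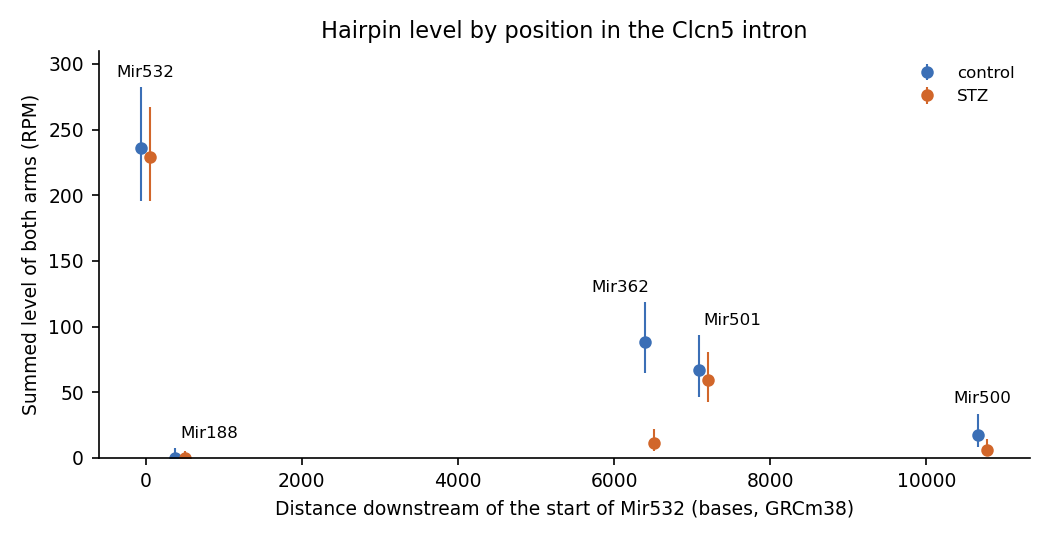
Summed level of both strands of each hairpin in RPM against its distance in bases downstream of Mir532, for the control (blue) and the STZ library (orange), with exact 95% Poisson intervals. Points are moved slightly apart sideways for reading. Mir362 stands at 88.6 and 11.3 RPM, Mir188 at 0 in both, and the intervals of the libraries overlap for Mir532, Mir501 and Mir500.

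Other X-linked miRNAs were compared through a list of names that holds 58 entries, of which 49 matched a mature mouse miRNA of chromosome X in RefSeq by name. Of 25 tested, 7 (28.0%) were lower, 2 (8.0%) higher and 16 neither, with a median log2 difference of -0.53, beside 18.5% lower, 17.8% higher and a median of -0.02 over all named entries. The entries are not independent, since several share a hairpin. The lowest ratios among those with at least 20 reads were 0.0288 (0.000700 to 0.176) for miR-503-5p with 25 and 1 reads, 0.170 for miR-424-5p and 0.194 for miR-98-3p. miR-503 and miR-424 belong to another X-linked cluster, known for slowing the cell cycle. They were named for their low ratios, so their values do not describe that cluster as a whole. The mouse-named miR-503-5p had 0 and 3 reads. The highest ratios were 4.55 (1.34 to 24.0) for miR-221-5p, 2.30 for miR-505-3p and 1.997 for miR-676-5p, the last 2 with intervals that include 1. Of the entries named here, miR-424-5p and miR-676-5p had no match by name in RefSeq.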

How the data were processed

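The authors deposited 1 table per library with a signal per small RNA, scaled to 1000000 assigned reads and called TPM there, per the file headers; it is written as RPM here. The submitters' processing notes name the build GRCm39. No aligner, miRNA reference, mismatch limit or trimming step is stated in the labels or headers. An unnamed subtotal was left out. Dividing by the value of 1 read gave whole reads for 100.0% of values within 0.001 of a read.

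From these reads came exact conditional binomial (Clopper-Pearson) intervals of ratios, Poisson intervals of levels, Wilson intervals of shares and exact conditional intervals of odds ratios, all at 95%. The plan allowed for a normalized unit. The fold rule used a pseudocount of 1 RPM and a mean of at least 10 RPM. With 1 library per group edgeR's test has no residual degrees of freedom. Scaling alternatives used edgeR 4.0.16 (TMM) and DESeq2 1.42.0 (median of ratios) in R 4.3.3. Python 3.11.15 with scipy 1.17.1 did the rest. The intervals were tested on simulated Poisson reads, which hold only the counting error that the intervals assume. That test does not cover PCR copies or differences between animals. Every entry picked by the name rule is named. The members and lists were chosen with earlier results of these data known. Sums without miR-362 entries, sums by species of name and the arm comparison over all precursors were added after the data were seen.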

Additional observations from a re-analysis of the deposited data

How the results depend on the processing

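Scaling by TMM, by the median of ratios or by totals without the 10 most abundant miRNAs moved log2 ratios by 0.01 or less. Under these 3 scalings the ratio of miR-362-5p stayed between 0.0163 and 0.0164, that of the other 14 entries between 0.890 and 0.900, and the counts of 3 lower and 0 higher entries did not change. With no minimum level the counts were 6 lower and 2 higher. With the minimum raised to 100 RPM miR-532-5p alone was tested, 0 were lower and the median log2 difference was -0.058. With the rule on reads, and with a 4-fold minimum, 1 entry was lower. The median of -0.69 became -0.81 with names summed and -0.51 with a pseudocount of 5 RPM, at which 2 entries in place of 3 were lower. The ratio of human-named miR-501-3p, 0 in the main setting, became 0.812 with names summed, because the mouse-named entry holds most of its reads. A human-named arm ratio of miR-501 has no finite value, as its 3p strand had 0 STZ reads. No paired analysis was possible because there was a single library of each kind, so none could be left out either. Depth limits every entry but miR-532-5p and mouse-named miR-501-3p. The ratio of miR-362-5p rests on 1 STZ read, and the remaining entries had fewer than 20 reads over both libraries.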

Other observations

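Of the neighbours in name or sequence that the cluster rule leaves out, miR-150-5p, a miRNA of mature lymphocytes, had 1064 control and 1108 STZ reads (2094 and 1568 RPM), a ratio of 0.749 (0.688 to 0.815). Its opposite strand under the human name had 4 and 8 reads, a ratio of 1.44 (0.385 to 6.52). No entry for miR-500b was analysed here.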
